A study of Homo sapiens with 18 samples.

Results

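The mitotic genes described here are 40 genes whose products carry a cell through division, from the cyclins and kinases that start mitosis to the proteins that pinch the daughter cells apart. They were taken as a fixed list of symbols, matched to the gene identifiers of the read count tables through GENCODE release 29, and all 40 matched among 58051 identifiers. Of these, 39 passed the filter on low counts. UBE2C, the ubiquitin-conjugating enzyme of the anaphase-promoting complex, did not: it had 16 counts in all over the 3 DMSO libraries, and no comparison is given for it. Reads that aligned to several places are not in the gene counts, and whether this lowered UBE2C was not tested.

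The study measured polyadenylated RNA in KBM7, a cell line from a human chronic myelogenous leukaemia, after 5 h of treatment. Control cells received DMSO, the solvent. The 4 compounds coded dCeMM-1 to dCeMM-4 were each given at 10 times their EC50, and THZ531 was given at 600 nM. Each of these 6 groups had 3 libraries, and synthetic RNAs of the ERCC and SIRV sets had been spiked into each. The series is about molecular glue degraders, small molecules that bring a protein to a ubiquitin ligase. As background, dCeMM-1 is known to act on the splicing factor RBM39, while dCeMM-2, dCeMM-3 and dCeMM-4 are known to cause loss of cyclin K, the partner of the transcription kinases CDK12 and CDK13, which THZ531 inhibits. All groups share the line and the duration, and all results are from this 1 line.

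As background, RNAs of mitotic genes rise as cells pass through G2 and fall after division, so their level in a growing culture depends on how many cells are near mitosis as well as on transcription in each cell. Many of these genes are held silent in resting and early cycling cells by the DREAM complex and are switched on later by the MuvB proteins with MYBL2 and then FOXM1. Both forms of MuvB contact a short promoter element, the cell cycle genes homology region or CHR, often beside CCAAT boxes bound by NF-Y. In bulk RNA such as this, fewer cells in G2 and mitosis and less RNA per cell cannot be told apart.

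Because the CHR and CCAAT elements are what this family is best known to share, promoter windows were read for 33 of the 40 genes from RefSeq sequence on GRCh38.p14, each 300 bases long from 250 before to 50 after the annotated start. TPX2, UBE2C, AURKA, BUB3, FOXM1, TTK and BIRC5 had no entry in the table. For 6 members several windows were listed, and only the first was read. A CHR, searched as TTTGAA or TTCGAA on both strands, stood in 22 of 33 windows (66.7%), against 16.6% of 27305 gene promoters of the same length. CCAAT, searched on both strands, stood in 25 windows (75.8% against 35.7%), and both elements together in 18 (54.5% against 6.58%). No window had a CHR that overlapped a CCAAT. A match of letters is a description and not a bound site. The 5 windows below were chosen because they hold like arrangements of these elements, or CCAAT alone in CCNB1, in genes that the compounds moved in different ways, as described further on. Capitals mark each CHR or CCAAT, on either strand, and each run is given 5′ to 3′ in the direction of the gene. PLK1 lies on the plus strand at chr16:23678639-23678938, KIF11 on the plus strand at chr10:92592880-92593179, CCNB1 on the plus strand at chr5:69166900-69167199, PRC1 on the minus strand at chr15:90994486-90994785 and DEPDC1 on the minus strand at chr1:68497033-68497332.
PLK1: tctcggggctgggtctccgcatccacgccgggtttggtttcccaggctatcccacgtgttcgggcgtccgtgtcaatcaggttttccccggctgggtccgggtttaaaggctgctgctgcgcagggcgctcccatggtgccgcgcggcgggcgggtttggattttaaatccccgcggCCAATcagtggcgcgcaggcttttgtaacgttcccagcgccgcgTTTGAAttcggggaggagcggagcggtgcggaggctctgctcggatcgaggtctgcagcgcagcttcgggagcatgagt
KIF11: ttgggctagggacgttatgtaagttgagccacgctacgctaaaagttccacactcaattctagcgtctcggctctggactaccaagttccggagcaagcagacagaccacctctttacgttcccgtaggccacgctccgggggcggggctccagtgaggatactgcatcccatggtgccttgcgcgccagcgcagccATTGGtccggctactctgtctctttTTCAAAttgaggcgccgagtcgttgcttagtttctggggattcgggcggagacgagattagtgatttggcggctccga
PRC1: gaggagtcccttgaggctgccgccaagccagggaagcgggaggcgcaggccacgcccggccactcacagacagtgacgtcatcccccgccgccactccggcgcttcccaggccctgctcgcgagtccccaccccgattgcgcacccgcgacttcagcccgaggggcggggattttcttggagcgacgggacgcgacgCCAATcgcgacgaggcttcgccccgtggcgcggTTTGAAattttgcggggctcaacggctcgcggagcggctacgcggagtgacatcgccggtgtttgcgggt
DEPDC1: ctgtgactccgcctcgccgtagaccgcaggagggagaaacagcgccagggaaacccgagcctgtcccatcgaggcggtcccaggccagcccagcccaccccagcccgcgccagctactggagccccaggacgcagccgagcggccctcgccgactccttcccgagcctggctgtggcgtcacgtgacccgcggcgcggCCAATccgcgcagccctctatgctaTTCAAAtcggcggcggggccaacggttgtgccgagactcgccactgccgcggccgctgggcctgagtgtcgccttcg
CCNB1: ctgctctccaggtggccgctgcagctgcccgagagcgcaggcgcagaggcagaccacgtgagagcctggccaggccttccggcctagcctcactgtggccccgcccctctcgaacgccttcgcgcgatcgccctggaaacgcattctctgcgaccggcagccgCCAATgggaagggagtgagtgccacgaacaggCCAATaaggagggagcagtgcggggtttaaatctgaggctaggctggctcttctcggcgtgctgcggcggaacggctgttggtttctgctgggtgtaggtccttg

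In the windows of PLK1, KIF11, PRC1 and DEPDC1 a single CHR began at -29, -28, -20 and -27 from the start, and a single CCAAT began at -73, -53, -53 and -52. CCNB1 had no CHR by these letters and CCAAT boxes beginning at -87 and -55.

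Gene counts per library ranged from 4598576 in DMSO replicate 3 to 17943571. Levels are counts per 1000000 of the library's TMM-scaled total (CPM), a scaling that sets the bulk of genes equal between libraries, so a TMM fold change is relative to the other genes. A second scale set libraries equal by their spike-in counts. The spike-ins took 0.167% to 0.202% of gene and spike-in counts together with DMSO, 0.155% to 0.191% with dCeMM-1, 0.195% to 0.290% with dCeMM-4, and 0.416% to 0.611% over the libraries of dCeMM-2, dCeMM-3 and THZ531. The median of all 15055 genes tested was accordingly -1.80, -1.96 and -1.94 in log2 fold change with dCeMM-2, dCeMM-3 and THZ531 on the spike-in scale, against -0.02, -0.15 and -0.10 on the TMM scale. For dCeMM-4 these medians were -0.56 and 0.01, and for dCeMM-1 0.10 and 0.03. The labels do not state what the amount of spike-in was matched to, cells or RNA, so the spike-in scale gives RNA per spike-in count. It was also noisier: the median SE of a member's log2 fold change against DMSO was 0.08 to 0.09 on the TMM scale and 0.21 to 0.22 on the spike-in scale. The 11 blood cell markers checked were all above 1 CPM on average in every group, and the fibroblast markers summed to at most 4.85 CPM in any library, with DCN at 0 in all groups. A T cell list (CD3D, CD3E, CD3G, CD2) summed to 71.8 to 78.3 CPM with DMSO and 123 to 155 CPM over the libraries of dCeMM-2, dCeMM-3 and THZ531, with CD3G and CD2 at or near 0 throughout. An epithelial list (EPCAM, KRT8, KRT18, KRT19, CDH1) summed to 70.7 to 75.8 CPM with DMSO and 108 to 123 with dCeMM-2, with KRT19 at or near 0. An endothelial list (PECAM1, CDH5, VWF, KDR) went from 43.8 to 45.01 CPM with DMSO to 15.7 to 17.9 with dCeMM-4, with all but PECAM1 at or near 0. The share of the count total that did not align uniquely was 27.7% to 29.5% with DMSO, 27.03% to 31.9% with dCeMM-1 and 28.7% to 29.96% with dCeMM-4, but 35.7% to 36.9% with dCeMM-2, 38.7% to 44.4% with dCeMM-3 and 36.2% to 39.8% with THZ531. The part of these lists and of this share in the results was not tested. The labels do not say that libraries of the same group stem from different cultures, so p-values measure the spread between these libraries only.

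In DMSO the family was well expressed but unevenly. Per kilobase of exon, CCNB1 stood highest at 84.4 CPM, followed by TOP2A at 81.3, TPX2 at 50, CCNA2 at 42.4 and CDC20 at 39.2. At the low end of the genes tested, CDC25C stood at 2.53 and ESPL1 at 1.41 CPM per kilobase. Together the 40 genes took 0.430%, 0.405% and 0.413% of gene counts in the 3 DMSO libraries. They took 0.198%, 0.220% and 0.217% with dCeMM-2, 0.222%, 0.203% and 0.230% with dCeMM-3, and 0.184%, 0.190% and 0.184% with THZ531, so in these 3 groups every library lay below every DMSO library. With dCeMM-4 the share was 0.370%, 0.360% and 0.381%, below DMSO but close to it, and with dCeMM-1 it was 0.417%, 0.410% and 0.433%, within the DMSO range or just above it. Set against spike-in counts, the sum averaged 103% ± 14.8 of DMSO with dCeMM-1 and 69.6% ± 13.1 with dCeMM-4, and only 15.3% ± 3.04 with THZ531, 17.5% ± 3.30 with dCeMM-3 and 17.96% ± 3.42 with dCeMM-2 (SD, n = 3).

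Most mitotic RNAs were lower relative to other genes with dCeMM-2, dCeMM-3 and THZ531, and members were called in both directions with dCeMM-4. Calls are by edgeR's quasi-likelihood test with Benjamini-Hochberg adjustment over all 15055 genes and a threshold of 0.05, and ± after a log2 fold change gives its SE with 3 libraries per group. On the TMM scale THZ531 lowered 33 of 39 members and raised 3, where 43.7% of all genes were called lower and 35.8% higher. Their median was -1.28 against -0.10 for all genes. With dCeMM-2, 32 were lower and 3 higher (41.2% and 37.1% of all genes), with a median of -1.04 against -0.02. With dCeMM-3, 31 were lower and 5 higher (45.1% and 35.9%), with a median of -0.82 against -0.15. With dCeMM-4, 15 were lower and 13 higher, shares close to the 35.3% and 32.9% of all genes, and the median was 0.01 against 0.01. With dCeMM-1, 7 were lower and 8 higher, again near the 14.8% and 16.5% of all genes. DESeq2's size factors inside edgeR gave 8 lower and 6 higher with dCeMM-1. DESeq2 gave 15 lower and 18 higher members with dCeMM-4, where it called 4506 of the 15055 genes lower and 5580 higher. For dCeMM-3 it gave 27 lower and 6 higher members (6122 and 5882 of all genes). For dCeMM-2 these were 31 and 4 (5776 and 5751), and for THZ531 32 and 4 (5845 and 5917). These comparisons share the 3 DMSO libraries. Of the higher calls, the 3 with THZ531 came to 1 without DMSO replicate 2.

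On the spike-in scale all 39 members were lower in the dCeMM-2, dCeMM-3 and THZ531 comparisons, and 0 were higher by edgeR, by DESeq2 or at an unadjusted p under 0.05, but lower calls covered 83.0%, 83.7% and 84.7% of all genes, with 1.48%, 1.12% and 1.32% higher. The members' share is near that background and is not a result about them. Their medians were -2.82, -2.64 and -3.08, against -1.80, -1.96 and -1.94 for all genes, a description with no test. With dCeMM-4, 21 members were lower and 0 higher (48.0% and 6.30% of all genes), with a median of -0.56, the same to 2 decimals as the -0.56 of all genes. By DESeq2, 23 were lower and 0 higher, at an unadjusted p under 0.05 edgeR gave 24 lower and 0 higher, and without dCeMM-4 replicate 1 there was 1 higher call. With dCeMM-1, 0 were lower and 0 higher (1.34% and 2.83% of all genes). At an unadjusted p under 0.05, edgeR gave 0 lower and 3 higher for dCeMM-1, and DESeq2 called 0 in either direction.

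**Figure D1:**
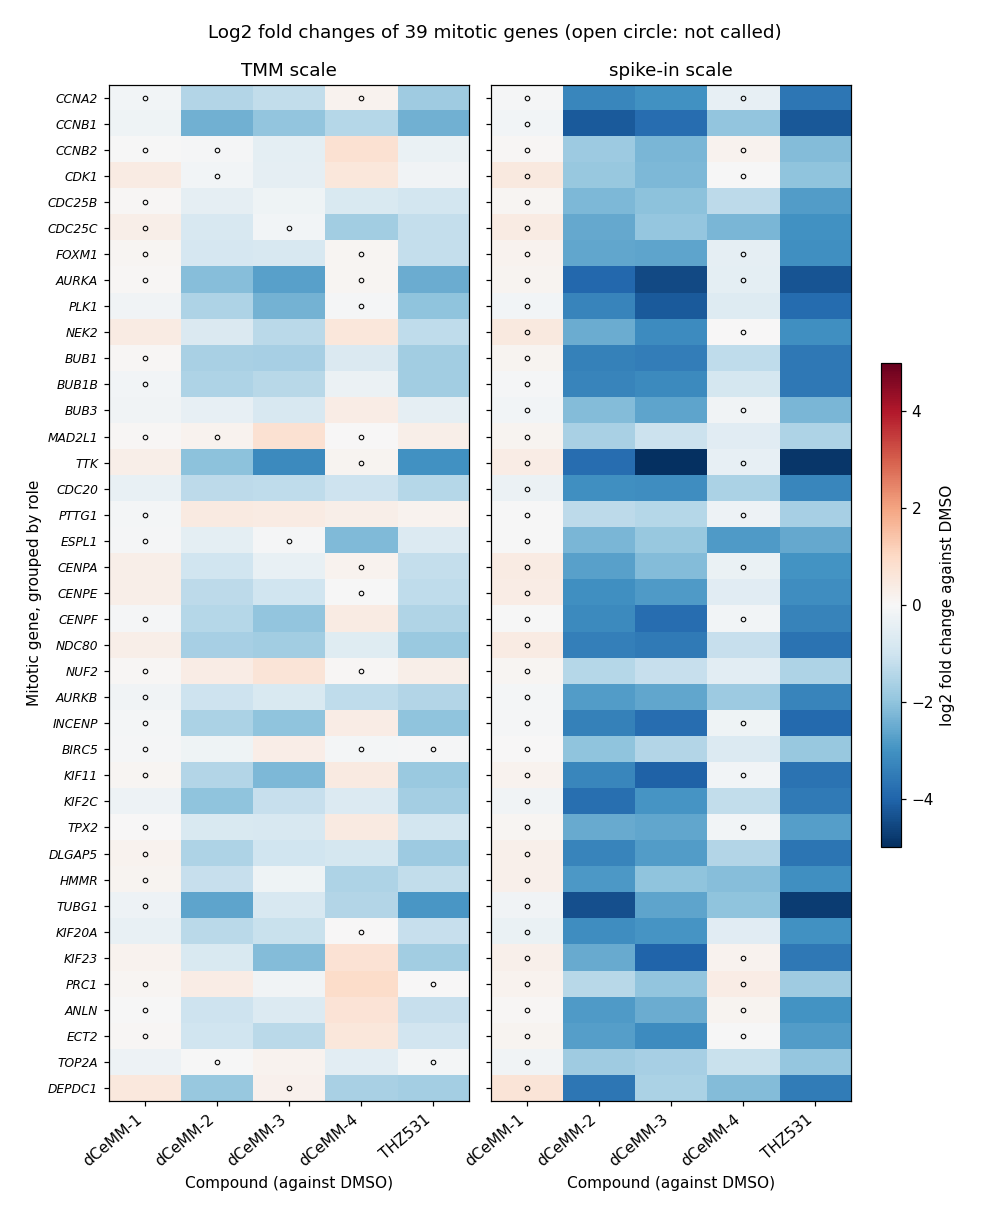
Log2 fold change against DMSO (colour, blue lower and red higher) for the 39 mitotic genes tested, in rows grouped by role, with each of 5 compounds in columns, on the TMM scale (left) and the spike-in scale (right); open circles mark values not called at an adjusted p of 0.05. On the left, dCeMM-2, dCeMM-3 and THZ531 lowered 32, 31 and 33 members (41.2%, 45.1% and 43.7% of all genes). There dCeMM-4 lowered 15 and raised 13 (35.3% and 32.9% of all genes). On the right, all 39 were lower with dCeMM-2, dCeMM-3 and THZ531, where 83.0%, 83.7% and 84.7% of all genes were.

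Mitotic entry is driven by cyclin A2 and the B cyclins, their kinase CDK1, the phosphatases CDC25B and CDC25C that release CDK1 from inhibition, and the transcription factor FOXM1. On the TMM scale 7 of these 7 genes were lower with THZ531 (43.7% of all genes), 6 with dCeMM-3 (45.1%), 5 with dCeMM-2 (41.2%) and 3 with dCeMM-4 (35.3%), where CCNB2 and CDK1 were higher. Of the 7 THZ531 values, that of CDK1 was the smallest in size. The main cyclin of mitosis, CCNB1 (chr5:69167010-69178245, GRCh38), stood at 233, 208 and 207 CPM with DMSO. It stood at 37.3, 40.6 and 44.9 with dCeMM-2, 54.4, 57.9 and 52.6 with dCeMM-3, 81.7, 77.8 and 84.1 with dCeMM-4 and 42.3, 42.01 and 39.7 with THZ531. All libraries of these 4 groups lay below all DMSO libraries, those of dCeMM-4 least far. The log2 fold changes of CCNB1 were -2.41 ± 0.07 (adjusted p = 2.44e-26) with dCeMM-2, -1.98 ± 0.07 (adjusted p = 7.18e-25) with dCeMM-3, -1.41 ± 0.07 (adjusted p = 5.15e-20) with dCeMM-4 and -2.39 ± 0.07 (adjusted p = 1.23e-26) with THZ531. It fell on the spike-in scale too, to 6.48, 4.89 and 4.67% of the DMSO mean in the 3 THZ531 libraries.

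CDK1, the kinase that B cyclins activate, was higher with dCeMM-4 on the TMM scale and lower with dCeMM-3. It stood at 134, 114 and 122 CPM with DMSO, 199, 185 and 166 with dCeMM-4 and 93.5, 77.8 and 102 with dCeMM-3. The dCeMM-4 libraries all lay above DMSO and the dCeMM-3 libraries all below it. The log2 fold changes were 0.57 ± 0.08 (adjusted p = 1.30e-07) with dCeMM-4 and -0.43 ± 0.08 (adjusted p = 1.79e-05) with dCeMM-3, while dCeMM-2 gave -0.12 ± 0.08 (adjusted p = 0.193), which did not pass. With THZ531 it stood at 111, 108 and 106 CPM, all below DMSO, at -0.19 ± 0.08 (adjusted p = 0.0362), and this call was lost under DESeq2, with DESeq2's size factors inside edgeR (-0.04 by each), and without DMSO replicate 1, THZ531 replicate 2 or THZ531 replicate 3. On the spike-in scale CDK1 with dCeMM-4 was at 0.00 ± 0.21 and not called. CCNB2, a second B cyclin, was also measured at 87.3, 79.4 and 80.5 CPM with DMSO, 139, 140.3 and 136 with dCeMM-4, 55.3, 61.7 and 61.5 with dCeMM-3 and 80.4, 79.99 and 80.3 with dCeMM-2. Its libraries lay above DMSO with dCeMM-4, below with dCeMM-3, and among the DMSO values with dCeMM-2. This gave log2 fold changes of 0.74 ± 0.07 (adjusted p = 1.32e-12), -0.48 ± 0.07 (adjusted p = 9.74e-08) and -0.04 ± 0.07 (adjusted p = 0.584) in that order, and with dCeMM-4 it was 0.18 and not called on the spike-in scale.

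CDC25C fell with dCeMM-4, THZ531 and dCeMM-2. It was low in the cells, at 9.77, 6.94 and 8.62 CPM with DMSO, and reached 2.30, 2.55 and 2.74 with dCeMM-4, 3.28, 3.95 and 3.78 with THZ531 and 5.42, 4.61 and 4.34 with dCeMM-2, all below DMSO, but 8.55, 6.63 and 7.63 with dCeMM-3, overlapping DMSO. As log2 fold changes these were -1.72 ± 0.17 (adjusted p = 7.93e-12) with dCeMM-4, -1.19 ± 0.17 (adjusted p = 3.24e-08) with THZ531, -0.79 ± 0.16 (adjusted p = 3.09e-05) with dCeMM-2 and -0.12 ± 0.14 (adjusted p = 0.433) with dCeMM-3. FOXM1 stood at 72.5, 76.8 and 71.9 CPM with DMSO, 42.5, 41.7 and 41.2 with dCeMM-2, 41.6, 43.3 and 41.3 with dCeMM-3 and 29.4, 35.4 and 31.4 with THZ531, below DMSO in every one of these libraries. With dCeMM-4 it stood at 80.2, 76.6 and 81.1, overlapping DMSO. For FOXM1 the log2 fold changes were -0.82 ± 0.08 (adjusted p = 1.44e-12), -0.81 ± 0.07 (adjusted p = 1.10e-12) and -1.21 ± 0.08 (adjusted p = 3.03e-17) with dCeMM-2, dCeMM-3 and THZ531, and 0.10 ± 0.07 (adjusted p = 0.205) with dCeMM-4. FOXM1 with dCeMM-4 was called higher on the TMM scale by DESeq2 and with its size factors inside edgeR. By spike-in counts FOXM1 was not called with dCeMM-4. It was called lower there by DESeq2, with ERCC counts alone, and without dCeMM-4 replicate 2 or DMSO replicate 1. CCNA2, the cyclin of S phase and early mitosis, was lower with dCeMM-2, dCeMM-3 and THZ531, at -1.48, -1.23 and -1.77. With dCeMM-4 CCNA2 was 0.16 ± 0.07 (adjusted p = 0.0505) and not called. It was called higher there by DESeq2 and with its size factors inside edgeR (0.28 by each), and without DMSO replicate 1 or dCeMM-4 replicate 3. CDC25B was lower with all 4, between -0.94 with THZ531 and -0.20 with dCeMM-3, the latter -0.20 ± 0.08 (adjusted p = 0.0281) and -0.32 without dCeMM-3 replicate 2. That call was lost under DESeq2, with its size factors inside edgeR, and without dCeMM-3 replicate 1, dCeMM-3 replicate 3 or DMSO replicate 3.

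**Figure D2:**
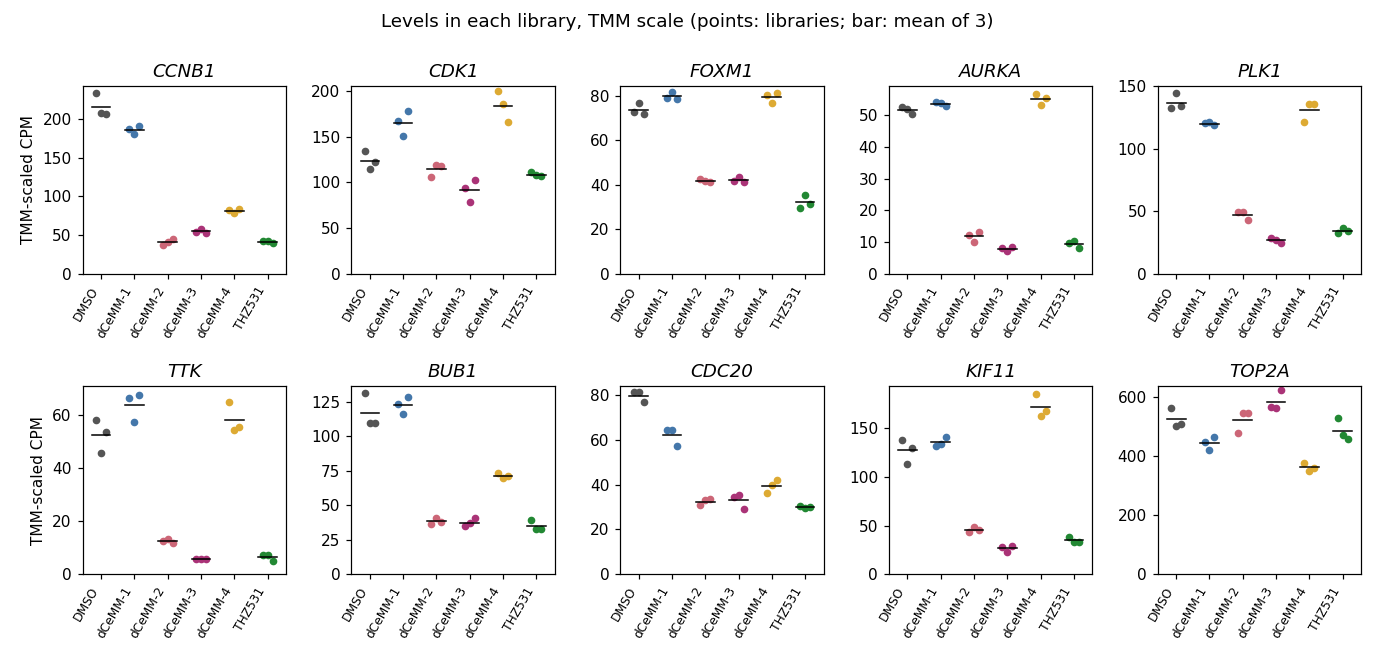
TMM-scaled CPM (vertical axes, from 0) of 10 mitotic genes in each library of the 6 groups; points are libraries and bars the mean of 3. AURKA, TTK and PLK1 with dCeMM-2, dCeMM-3 and THZ531 sat well below DMSO while their dCeMM-4 points sat near DMSO, and CCNB1, BUB1 and CDC20 were below DMSO in all 4 of these groups.

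AURKA, PLK1 and NEK2 are kinases of the spindle poles that mature the centrosomes and build the bipolar spindle. On the TMM scale 3 of 3 were lower with dCeMM-2, dCeMM-3 and THZ531, with medians of -1.53, -2.36 and -1.997. Of all genes, 41.2%, 45.1% and 43.7% were called lower in these comparisons. With dCeMM-4 AURKA and PLK1 were not called on the TMM scale and NEK2 was higher. AURKA (chr20:56369389-56392337) stood at 52.5, 51.8 and 50.4 CPM with DMSO. It stood at 12.3, 10.1 and 13.1 with dCeMM-2, 8.22, 7.15 and 8.34 with dCeMM-3 and 9.69, 10.2 and 8.12 with THZ531, and at 56.8, 53.3 and 55.3 with dCeMM-4. The first 3 groups lay wholly below DMSO, and the dCeMM-4 libraries lay just above it. Its log2 fold changes were -2.14 ± 0.10 (adjusted p = 1.34e-21), -2.70 ± 0.11 (adjusted p = 1.47e-24), -2.47 ± 0.10 (adjusted p = 2.23e-23) and 0.09 ± 0.08 (adjusted p = 0.313) in that order. The last was not called here and was called higher on the TMM scale by DESeq2 and with its size factors inside edgeR. By spike-in counts AURKA was not called with dCeMM-4. It was called lower there by DESeq2, with ERCC counts alone, and without dCeMM-4 replicate 2 or DMSO replicate 1. PLK1 (chr16:23677656-23690367), whose promoter is printed above, stood at 132, 144 and 134 CPM with DMSO, 49.3, 49.2 and 43.3 with dCeMM-2, 28.5, 27.1 and 24.3 with dCeMM-3, 32.5, 36.4 and 34.2 with THZ531 and 121, 136 and 136 with dCeMM-4. Only the dCeMM-4 libraries overlapped DMSO among these. For PLK1 the log2 fold changes were -1.53 ± 0.08 (adjusted p = 1.77e-20), -2.36 ± 0.08 (adjusted p = 4.83e-26), -1.997 ± 0.08 (adjusted p = 7.98e-24) and -0.07 ± 0.07 (adjusted p = 0.396). With dCeMM-4 PLK1 was lower on the spike-in scale (-0.63 ± 0.21, adjusted p = 0.00654), a call lost without dCeMM-4 replicate 1 or DMSO replicate 2. NEK2 was higher with dCeMM-4 on the TMM scale, at 31.5, 25.2 and 27.9 CPM against 20.6, 18.4 and 15.9 with DMSO, all 3 above, which gave 0.59 ± 0.10 (adjusted p = 5.48e-06). Scaled by spike-in counts, it was not called with dCeMM-4 (0.04).

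The spindle assembly checkpoint holds the cell in metaphase until every chromosome is attached, through the kinases TTK (also known as MPS1) and BUB1 and the proteins BUB1B, BUB3 and MAD2L1. TTK (chr6:80003887-80042527) showed the lowest log2 fold change of all members with dCeMM-3 and with THZ531. It stood at 58.1, 45.8 and 53.7 CPM with DMSO, 5.59, 5.70 and 5.80 with dCeMM-3, 7.31, 7.10 and 4.81 with THZ531, 12.6, 13.3 and 11.7 with dCeMM-2 and 64.8, 54.3 and 55.7 with dCeMM-4. The dCeMM-3 and THZ531 libraries lay farthest below DMSO, the dCeMM-2 libraries were also all below it, and the dCeMM-4 libraries overlapped DMSO. In terms of log2 fold change the values were -3.20 ± 0.14 (adjusted p = 7.93e-24), -3.03 ± 0.14 (adjusted p = 4.55e-23), -2.05 ± 0.12 (adjusted p = 5.85e-19) and 0.15 ± 0.09 (adjusted p = 0.144) in that order. TTK with dCeMM-4 was called higher by DESeq2, with its size factors inside edgeR and without DMSO replicate 1. Relative to spike-in counts, TTK stood at 3.06, 2.57 and 3.63% of the DMSO mean in the dCeMM-3 libraries and 4.61, 3.41 and 2.33% in the THZ531 libraries.

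BUB1 fell with 4 compounds, and to like levels with 3 of them. It stood at 131, 109 and 109.6 CPM with DMSO, 36.6, 40.6 and 37.8 with dCeMM-2, 34.7, 37.1 and 40.4 with dCeMM-3, 38.99, 32.6 and 32.9 with THZ531 and 73.2, 69.7 and 71.1 with dCeMM-4, every treated library below every DMSO library. These were log2 fold changes of -1.61 ± 0.08 (adjusted p = 1.01e-19), -1.65 ± 0.08 (adjusted p = 2.06e-20), -1.75 ± 0.08 (adjusted p = 6.38e-21) and -0.72 ± 0.08 (adjusted p = 2.22e-10). BUB1B was lower with the same compounds, from -1.73 with THZ531 to -0.30 with dCeMM-4. BUB3 was lower with dCeMM-2 (-0.40), dCeMM-3 (-0.82) and THZ531 (-0.44), and on the TMM scale higher with dCeMM-4 (0.38), which on the spike-in scale was -0.19 and not called. MAD2L1, which carries the arrest signal to CDC20, went the other way relative to other genes. It stood at 69.4, 60.1 and 64.4 CPM with DMSO and 105, 99.4 and 119.7 with dCeMM-3, all higher, a log2 fold change of 0.74 ± 0.09 (adjusted p = 4.65e-10) on the TMM scale and -1.06 ± 0.21 (adjusted p = 1.22e-06) on the spike-in scale. With THZ531 it stood at 87.4, 82.3 and 69.3 CPM, overlapping DMSO, and was 0.30 ± 0.09 (adjusted p = 0.00205) on the TMM scale and -1.53 ± 0.21 (adjusted p = 3.74e-12) on the spike-in scale.

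Anaphase starts when CDC20 turns on the anaphase-promoting complex, which destroys securin (PTTG1) and frees separase (ESPL1) to cut cohesin. CDC20 stood at 81.3, 81.4 and 76.9 CPM with DMSO, 31.04, 33.00 and 33.4 with dCeMM-2, 34.7, 35.2 and 29.2 with dCeMM-3, 36.2, 39.9 and 42.1 with dCeMM-4 and 30.4, 29.5 and 30.2 with THZ531, every treated library below DMSO. Its log2 fold changes were -1.30 ± 0.08 (adjusted p = 4.41e-17), -1.28 ± 0.08 (adjusted p = 3.59e-17), -1.02 ± 0.08 (adjusted p = 2.58e-14) and -1.42 ± 0.08 (adjusted p = 2.86e-18). ESPL1 (chr12:53268299-53293643) had the lowest log2 fold change of all members with dCeMM-4. It stood at 11.4, 12.1 and 14.2 CPM with DMSO, 2.42, 2.49 and 2.93 with dCeMM-4, 13.2, 11.1 and 11.1 with dCeMM-3 and 7.63, 7.54 and 7.65 with THZ531. The dCeMM-4 and THZ531 libraries lay below DMSO, and those of dCeMM-3 overlapped it. The log2 fold changes were -2.22 ± 0.16 (adjusted p = 4.99e-16) with dCeMM-4, -0.04 ± 0.12 (adjusted p = 0.753) with dCeMM-3, -0.68 ± 0.13 (adjusted p = 1.59e-05) with THZ531 and -0.48 ± 0.13 (adjusted p = 0.00133) with dCeMM-2.

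PTTG1 was higher on the TMM scale with 4 compounds and lower on the spike-in scale with 3 of them. It stood at 75.7, 61.1 and 64.8 CPM with DMSO, 84.5, 90.9 and 99.9 with dCeMM-2, 89.5, 88.8 and 88.1 with dCeMM-3, 87.9, 82.3 and 80.6 with dCeMM-4 and 68.5, 79.6 and 81.2 with THZ531. All but the THZ531 group lay wholly above DMSO. The TMM log2 fold changes were 0.44 ± 0.08 (adjusted p = 6.63e-06), 0.40 ± 0.08 (adjusted p = 2.74e-05), 0.31 ± 0.08 (adjusted p = 7.33e-04) and 0.18 ± 0.08 (adjusted p = 0.0395), the last not called without DMSO replicate 2 (0.09), DMSO replicate 3, THZ531 replicate 2 or THZ531 replicate 3, and 0.28 without DMSO replicate 1. With spike-in scaling, they were -1.33, -1.41, -0.25 and -1.67, with the dCeMM-4 value not called, and those of the other 3 were nearer 0 than the medians of all genes given above.

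At the centromere, CENPA marks the site on DNA, NDC80 and NUF2 form the arm that grips microtubules, and CENPE and CENPF attach to it. With dCeMM-2, dCeMM-3 and THZ531, 4 of these 5 were lower and NUF2 was higher on the TMM scale. Lower calls covered 41.2%, 45.1% and 43.7% of all genes in these comparisons, and higher calls 37.1%, 35.9% and 35.8%. NDC80 was lower with these 3 compounds, at -1.67, -1.73 and -1.86, and with dCeMM-4, at -0.60. NUF2, its direct partner, stood at 31.3, 27.03 and 31.2 CPM with DMSO, 37.2, 36.96 and 39.7 with dCeMM-2, 47.9, 40.01 and 51.01 with dCeMM-3 and 35.5, 39.3 and 35.6 with THZ531, all above DMSO. The TMM log2 fold changes of NUF2 were 0.35 ± 0.10 (adjusted p = 0.0022), 0.65 ± 0.10 (adjusted p = 2.58e-07) and 0.31 ± 0.10 (adjusted p = 0.00584), the last not called without DMSO replicate 2. Against spike-in counts instead, the same comparisons gave -1.43, -1.16 and -1.54, all called lower. NDC80 and NUF2 were thus called in opposite directions on the TMM scale and both lower on the spike-in scale. CENPF was lower with dCeMM-2 (-1.41), dCeMM-3 (-1.98) and THZ531 (-1.49) and higher with dCeMM-4 on the TMM scale (0.42, and -0.15, not called, on the spike-in scale). CENPE and CENPA were lower with the first 3, between -1.32 and -0.39, and not called with dCeMM-4 on the TMM scale. The CENPA call with dCeMM-3 was lost under DESeq2, with its size factors inside edgeR and without DMSO replicate 1. In those same settings CENPA was called higher with dCeMM-4.

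The chromosomal passenger complex corrects wrong attachments and is made of the kinase AURKB, the scaffold INCENP and survivin (BIRC5). AURKB stood at 52.2, 55.01 and 52.1 CPM with DMSO, 25.1, 26.4 and 26.7 with dCeMM-2, 30.8, 36.1 and 27.3 with dCeMM-3, 19.7, 23.3 and 22.7 with dCeMM-4 and 19.6, 19.4 and 19.2 with THZ531, all below DMSO, and its log2 fold changes were -1.03 ± 0.09 (adjusted p = 3.85e-13), -0.77 ± 0.09 (adjusted p = 3.34e-10), -1.28 ± 0.09 (adjusted p = 9.00e-16) and -1.46 ± 0.09 (adjusted p = 2.75e-17). INCENP was lower with dCeMM-2 (-1.58), dCeMM-3 (-2.0) and THZ531 (-2.02) and higher with dCeMM-4 on the TMM scale alone (0.37, against -0.20, not called, on the spike-in scale). BIRC5 stood at 68.9, 67.8 and 61.3 CPM with DMSO, 89.04, 84.9 and 80.5 with dCeMM-3 and 57.2, 56.9 and 57.1 with dCeMM-2. The dCeMM-3 libraries lay above DMSO and the dCeMM-2 libraries below. This gave log2 fold changes of 0.35 ± 0.07 (adjusted p = 5.60e-05) and -0.22 ± 0.08 (adjusted p = 0.00907), and on the spike-in scale both were lower (-1.46 and -1.99). With THZ531 BIRC5 was at -0.06 and with dCeMM-4 at -0.11, neither called on the TMM scale. The dCeMM-2 call was lost under DESeq2 and with its size factors inside edgeR.

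KIF11 and KIF2C are kinesins that push the poles apart and depolymerise microtubule ends, TPX2 activates AURKA, TUBG1 is the gamma-tubulin that seeds microtubules, and DLGAP5 and HMMR stabilise the spindle. All 6 of these spindle motors and microtubule factors were lower with dCeMM-2, dCeMM-3 and THZ531 on both scales. Of all genes, 41.2%, 45.1% and 43.7% were lower on the TMM scale and 83.0%, 83.7% and 84.7% on the spike-in scale. TMM values of the 6 with dCeMM-3 ran from -2.24 for KIF11 to -0.23 for HMMR. On the TMM scale dCeMM-4 gave 4 lower and 2 higher, where 35.3% and 32.9% of all genes were. KIF11 (chr10:92593286-92655395) stood at 138, 113 and 130.3 CPM with DMSO, 43.5, 48.4 and 45.1 with dCeMM-2, 27.9, 22.6 and 29.3 with dCeMM-3, 38.2, 33.2 and 32.6 with THZ531 and 185, 163 and 168 with dCeMM-4. The first 3 groups lay below DMSO and dCeMM-4 above it, with no overlap. As log2 fold changes these were -1.48 ± 0.09 (adjusted p = 2.40e-18), -2.24 ± 0.09 (adjusted p = 1.03e-23), -1.87 ± 0.09 (adjusted p = 2.25e-21) and 0.44 ± 0.08 (adjusted p = 6.34e-06), and the last was -0.14 and not called on the spike-in scale. TPX2 was at -0.75, -0.79, -0.90 and 0.44, and with dCeMM-4 at -0.13 and not called on the spike-in scale.

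TUBG1 (chr17:42609676-42615234) had the lowest log2 fold change of all members with dCeMM-2. It stood at 32.8, 35.4 and 28.7 CPM with DMSO, 5.50, 4.85 and 5.62 with dCeMM-2, 4.84, 4.82 and 3.47 with THZ531, 18.9, 22.8 and 15.3 with dCeMM-3 and 13.6, 9.97 and 12.4 with dCeMM-4. All treated libraries were below DMSO, and those of dCeMM-3 came nearest to it. In terms of log2 fold change the values were -2.63 ± 0.16 (adjusted p = 4.58e-19), -2.91 ± 0.16 (adjusted p = 2.66e-20), -0.80 ± 0.12 (adjusted p = 9.69e-08) and -1.45 ± 0.12 (adjusted p = 1.35e-13). HMMR stood at 69.9, 48.4 and 54.05 CPM with DMSO, 21.3, 17.96 and 19.7 with dCeMM-4, 25.3, 28.5 and 24.6 with dCeMM-2 and 51.1, 43.7 and 52.4 with dCeMM-3, where only the last overlapped DMSO. These were log2 fold changes of -1.56 ± 0.11 (adjusted p = 9.97e-15), -1.14 ± 0.11 (adjusted p = 2.21e-11) and -0.23 ± 0.10 (adjusted p = 0.0408), the last being -0.06 and not called without DMSO replicate 1, not called without dCeMM-3 replicate 2, by DESeq2 or with its size factors inside edgeR, and -0.38 without DMSO replicate 2. KIF2C and DLGAP5 were lower with all 4 compounds, KIF2C most with dCeMM-2 (-2.003) and DLGAP5 most with THZ531 (-1.81).

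Genes of the central spindle and of cytokinesis act last in division. PRC1 bundles midzone microtubules, KIF23 and KIF20A are midzone kinesins, ECT2 switches on the contractile ring and ANLN anchors it. With dCeMM-4, 4 of the 5 were higher on the TMM scale, KIF20A was at 0.01 and not called, and the median of the 5 was 0.70. Higher calls covered 32.9% of all genes in that comparison and lower calls 35.3%. On the spike-in scale those 4 were not called and KIF20A was lower (-0.56 ± 0.22, adjusted p = 0.022), with a median of 0.13 over the 5. That KIF20A call was lost without dCeMM-4 replicate 1 (-0.37), DMSO replicate 2 or DMSO replicate 3. PRC1 (chr15:90966038-90995629) stood at 162, 143 and 138 CPM with DMSO, 271, 276 and 296 with dCeMM-4, 188, 202 and 188 with dCeMM-2, 126, 134 and 135 with dCeMM-3 and 163, 152 and 141 with THZ531. The dCeMM-4 and dCeMM-2 libraries lay above DMSO, the dCeMM-3 libraries below, and THZ531 overlapped. The log2 fold changes of PRC1 were 0.92 ± 0.07 (adjusted p = 5.02e-15), 0.38 ± 0.07 (adjusted p = 4.61e-06), -0.17 ± 0.07 (adjusted p = 0.0209) and 0.03 ± 0.07 (adjusted p = 0.651) in that order, and the dCeMM-3 call was lost under DESeq2, with its size factors inside edgeR, and without dCeMM-3 replicate 1 or DMSO replicate 1. Scaled by spike-in counts, PRC1 was lower with dCeMM-2 (-1.39), dCeMM-3 (-1.98) and THZ531 (-1.79) and not called with dCeMM-4 (0.37).

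KIF23 (chr15:69414246-69448427) stood at 122, 114 and 121 CPM with DMSO, 187, 197 and 210.1 with dCeMM-4, 68.7, 76.9 and 64.97 with dCeMM-2, 25.3, 27.2 and 26.9 with dCeMM-3 and 40.3, 34.1 and 32.4 with THZ531, with no overlap between any treated group and DMSO. Its log2 fold changes were 0.74 ± 0.07 (adjusted p = 1.31e-11), -0.75 ± 0.08 (adjusted p = 1.67e-11), -2.17 ± 0.08 (adjusted p = 1.97e-24) and -1.74 ± 0.08 (adjusted p = 1.36e-21) in that order, with 0.18, not called, for dCeMM-4 on the spike-in scale. ANLN and ECT2 were higher with dCeMM-4 on the TMM scale (0.70 and 0.57, and 0.13 and 0.00, not called, on the spike-in scale). Both fell with dCeMM-2 (-1.04 and -0.99), dCeMM-3 (-0.67 and -1.34) and THZ531 (-1.17 and -0.97). KIF20A fell with these 3 as well, at -1.34, -1.10 and -1.17.

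TOP2A, the topoisomerase that untangles sister chromatids, had the highest CPM of all members. It stood at 561, 501 and 508 CPM with DMSO, 478, 544 and 544 with dCeMM-2, 565, 563 and 622 with dCeMM-3, 527, 470.0 and 458 with THZ531 and 375, 351 and 359 with dCeMM-4. The dCeMM-4 libraries lay below DMSO, the dCeMM-3 libraries just above, and the others overlapped. The log2 fold changes were -0.53 ± 0.07 (adjusted p = 3.95e-09) with dCeMM-4, 0.16 ± 0.07 (adjusted p = 0.0291) with dCeMM-3, 0.00 ± 0.07 (adjusted p = 0.949) with dCeMM-2 and -0.11 ± 0.07 (adjusted p = 0.12) with THZ531. The dCeMM-3 value was 0.09 and not called without dCeMM-3 replicate 3, and it was not called without DMSO replicate 2 or DMSO replicate 3 either. Relative to spike-in counts, TOP2A was lower with all 4, between -1.94 with THZ531 and -1.10 with dCeMM-4. DEPDC1 (chr1:68474152-68497221), a mitotic protein whose role is less well settled, stood at 45.5, 35.1 and 34.1 CPM with DMSO, 8.99, 11.2 and 12.00 with dCeMM-2, 14.2, 12.3 and 11.8 with dCeMM-4, 11.7, 11.3 and 13.1 with THZ531 and 46.2, 39.9 and 48.3 with dCeMM-3. It was below DMSO in the first 3 of these groups, while the dCeMM-3 libraries overlapped it. This gave log2 fold changes of -1.88 ± 0.13 (adjusted p = 1.86e-16), -1.60 ± 0.12 (adjusted p = 3.08e-15), -1.68 ± 0.12 (adjusted p = 1.30e-15) and 0.21 ± 0.10 (adjusted p = 0.059).

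With dCeMM-1 changes were small. The widest values on the TMM scale were DEPDC1 at 0.54 ± 0.10 (adjusted p = 7.22e-05) and CDK1 at 0.41 ± 0.08 (adjusted p = 1.67e-04) on the higher side, and CDC20 at -0.37 ± 0.08 (adjusted p = 2.79e-04) and KIF20A at -0.36 ± 0.09 (adjusted p = 0.00147) on the lower. DEPDC1 stood at 55.03, 50.8 and 62.98 CPM, CDK1 at 166, 150.3 and 177, CDC20 at 64.4, 64.5 and 57.4 and KIF20A at 26.1, 27.5 and 26.6 in the dCeMM-1 libraries. All 3 libraries lay on 1 side of DMSO for each of these genes. NEK2 (0.40) was the third highest, and KIF2C (-0.25), TUBG1 (-0.25, not called) and TOP2A (-0.24) came next on the lower side. CCNB1 stood at 187, 181 and 191 CPM, all below DMSO, at -0.22 ± 0.07 (adjusted p = 0.0126). TTK was at 0.29 ± 0.09 (adjusted p = 0.0172) and was not called without DMSO replicate 2, which gave 0.18, nor without dCeMM-1 replicate 1 or 3. The CCNB1 call was lost without dCeMM-1 replicate 2 or DMSO replicate 1, and that of KIF2C without DMSO replicate 2. The 8 higher calls came to 3 without DMSO replicate 2, to 4 without dCeMM-1 replicate 3, and to 5 without dCeMM-1 replicate 1 or DMSO replicate 3. The 7 lower calls came to 4 without dCeMM-1 replicate 2. With spike-in scaling, DEPDC1 was at 0.64 ± 0.22 (adjusted p = 0.0649) and CCNB1 at -0.15 ± 0.21 (adjusted p = 0.813), neither called.

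**Figure D3:**
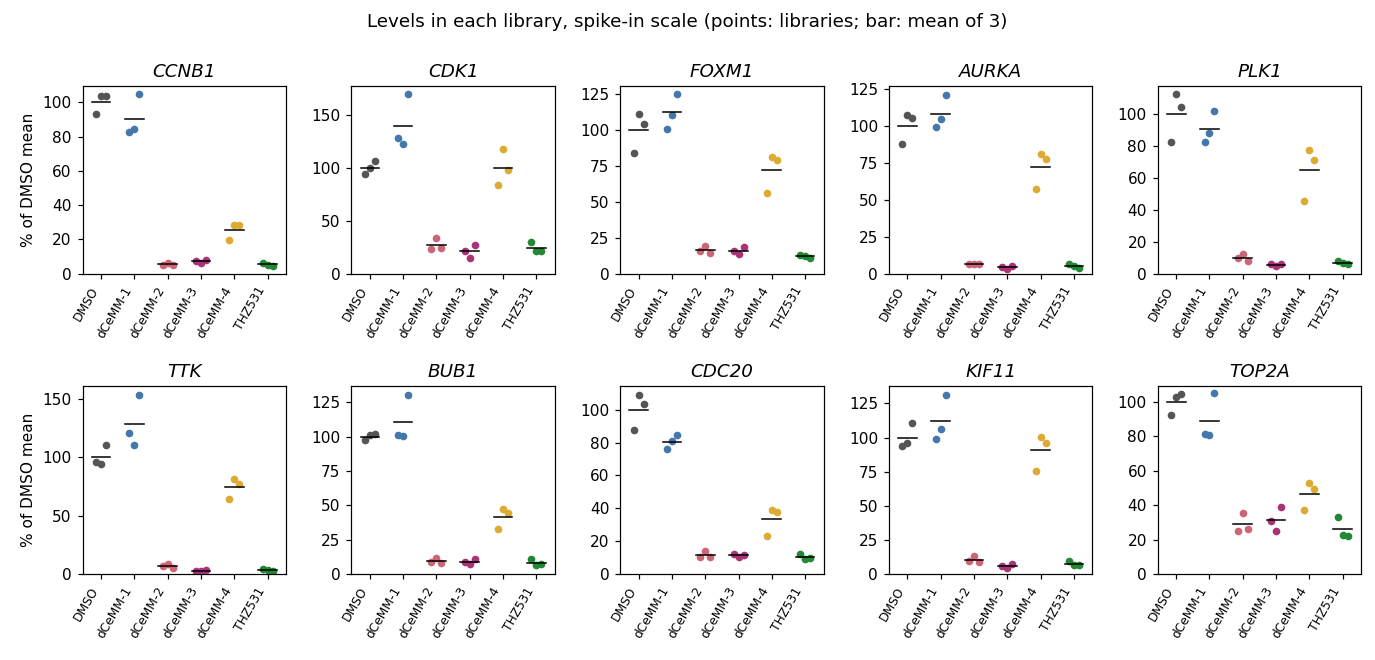
Levels of 10 mitotic genes set against spike-in counts, in percent of the DMSO mean (vertical axes, from 0), for each library of the 6 groups; points are libraries and bars the mean of 3. With dCeMM-2, dCeMM-3 and THZ531 all 10 genes were below every DMSO library. On this scale 83.0%, 83.7% and 84.7% of all genes were called lower in these comparisons. CDK1 and KIF11 overlapped DMSO with dCeMM-4, while CCNB1 and CDC20 were well below it.

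dCeMM-2, dCeMM-3 and dCeMM-4 were given at the same multiple of their EC50 for the same time, and differences between them were tested directly in 3 pairs, without DMSO as the reference, each adjusted over all genes. Between dCeMM-3 and dCeMM-4 nearly every member differed: on the TMM scale 26 were lower with dCeMM-3 and 11 higher, where 41.2% and 41.5% of all genes were, with a median difference of -0.995 against 0.08 for all genes. The widest differences were TTK at -3.35 (95% interval -3.63 to -3.08, adjusted p = 5.79e-25), KIF23 at -2.91 (95% interval -3.07 to -2.74, adjusted p = 8.41e-29), AURKA at -2.79 (95% interval -3.003 to -2.58, adjusted p = 1.73e-25) and KIF11 at -2.68 (95% interval -2.86 to -2.502, adjusted p = 1.59e-26). In the opposite direction, ESPL1 was higher with dCeMM-3 by 2.18 (95% interval 1.86 to 2.502, adjusted p = 2.68e-16) and DEPDC1 by 1.82 (95% interval 1.59 to 2.05, adjusted p = 1.37e-17), on a log2 scale. PLK1 differed by -2.30 (95% interval -2.45 to -2.14, adjusted p = 5.27e-26) and CCNB1 by -0.56 (95% interval -0.71 to -0.42, adjusted p = 5.84e-09). The narrowest were PTTG1 at 0.09 (95% interval -0.07 to 0.25, adjusted p = 0.297) and DLGAP5 at -0.09 (95% interval -0.27 to 0.10, adjusted p = 0.379), neither called, which leaves differences within those intervals possible. The kinases AURKA, PLK1 and NEK2 were all lower with dCeMM-3, with a median of -2.30, and so were 5 of 5 cytokinesis genes, with -1.37.

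By spike-in counts, 35 members were lower with dCeMM-3 than with dCeMM-4 and 2 higher (65.3% and 5.35% of all genes), with a median of -2.23 against -1.17. The 2 higher were ESPL1 (0.93 ± 0.26, adjusted p = 6.81e-04) and DEPDC1 (0.59 ± 0.22, adjusted p = 0.0124), and 1 was called without dCeMM-3 replicate 3. TTK differed by -4.59 ± 0.23 (adjusted p = 7.25e-70) and CCNB1 by -1.82 ± 0.21 (adjusted p = 9.64e-17). Members called higher with dCeMM-3 on the TMM scale and lower on the spike-in scale included MAD2L1, TOP2A, AURKB and TUBG1. Against spike-in counts instead, the AURKB call (-0.77) held in every setting run. That of MAD2L1 (-0.50) was lost without the filter on low counts and without dCeMM-3 replicate 1 or 2 or dCeMM-4 replicate 2 or 3, that of TOP2A (-0.55) without dCeMM-3 replicate 2 or dCeMM-4 replicate 2, and that of TUBG1 (-0.60) without dCeMM-4 replicate 3.

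dCeMM-2 and dCeMM-4 were compared in the same way. On the TMM scale 28 members were lower with dCeMM-2 and 7 higher (38.9% and 38.4% of all genes), with a median of -0.997 against 0.06. The widest differences were AURKA at -2.23 (95% interval -2.43 to -2.03, adjusted p = 5.69e-22), TTK at -2.21 (95% interval -2.44 to -1.97, adjusted p = 6.72e-20), INCENP at -1.95 (95% interval -2.13 to -1.78, adjusted p = 1.43e-21) and KIF11 at -1.91 (95% interval -2.08 to -1.74, adjusted p = 1.51e-21). CCNB1 differed by -0.997 (95% interval -1.15 to -0.84, adjusted p = 8.34e-15) and PLK1 by -1.46 (95% interval -1.61 to -1.31, adjusted p = 1.05e-19). BIRC5 at -0.12 (95% interval -0.27 to 0.04, adjusted p = 0.159) and PTTG1 at 0.13 (95% interval -0.03 to 0.29, adjusted p = 0.128) differed least and were not called. ESPL1 was higher with dCeMM-2 by 1.74 ± 0.17 (adjusted p = 1.79e-12). On the spike-in scale 37 were lower with dCeMM-2 and 0 higher (66.8% and 2.63% of all genes), and ESPL1 was not called (0.55 ± 0.27, adjusted p = 0.0546). DESeq2 also called 0 higher, 1 member was higher at an unadjusted p under 0.05, and 1 was called without dCeMM-2 replicate 1, without dCeMM-2 replicate 3 or without dCeMM-4 replicate 3.

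dCeMM-2 and dCeMM-3 also differed from each other. On the TMM scale 18 were lower and 13 higher with dCeMM-2 than with dCeMM-3 (16.5% and 26.6% of all genes), with a median of -0.15 against 0.02. DEPDC1 was lower with dCeMM-2, at -2.09 (95% interval -2.35 to -1.83, adjusted p = 1.26e-17), and so was TUBG1, at -1.83 (95% interval -2.15 to -1.50, adjusted p = 3.98e-13). KIF23 was higher with dCeMM-2 by 1.42 (95% interval 1.24 to 1.59, adjusted p = 1.08e-17) and TTK by 1.15 (95% interval 0.84 to 1.46, adjusted p = 2.79e-08). PLK1 was higher with dCeMM-2 by 0.83 (95% interval 0.66 to 1.003, adjusted p = 4.61e-11) and CCNB1 was lower, at -0.43 (95% interval -0.59 to -0.27, adjusted p = 1.36e-05). FOXM1 at -0.01 (95% interval -0.16 to 0.15, adjusted p = 0.957) and CDC20 at -0.03 (95% interval -0.21 to 0.15, adjusted p = 0.843) differed least and were not called. Scaled by spike-in counts, 5 were lower and 7 higher (4.32% and 18.4%), with DEPDC1 at -2.04 ± 0.23 (adjusted p = 7.67e-17), TUBG1 at -1.77 ± 0.25 (adjusted p = 1.85e-11), KIF23 at 1.46 ± 0.21 (adjusted p = 3.22e-10) and TTK at 1.19 ± 0.24 (adjusted p = 1.25e-05) among them. The 5 lower calls came to 9 without dCeMM-3 replicate 2. The 7 higher calls came to 4 without dCeMM-2 replicate 2 or dCeMM-3 replicate 2, and to 11 without dCeMM-3 replicate 3.

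**Figure D4:**
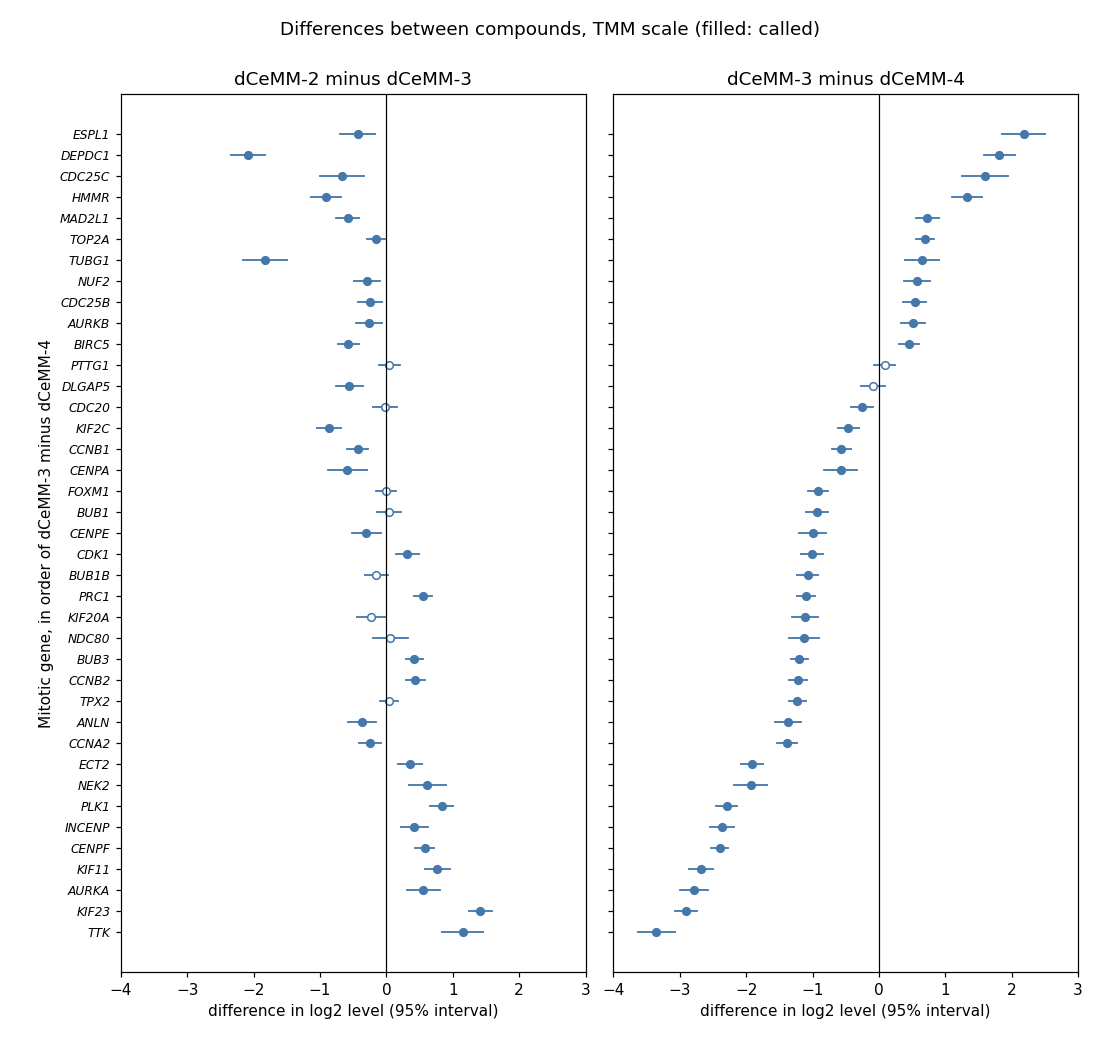
Difference in log2 level on the TMM scale (horizontal axes) of 39 mitotic genes between dCeMM-2 and dCeMM-3 (left) and between dCeMM-3 and dCeMM-4 (right), ordered by the right panel; dots are estimates from 3 libraries per group, lines 95% intervals, and filled dots passed an adjusted p of 0.05. On the right, values ran from -3.35 for TTK to 2.18 for ESPL1, and on the left from -2.09 for DEPDC1 to 1.42 for KIF23.

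Other genes of the cell cycle were counted in lists for comparison, to be read against the shares of all genes called lower and higher, which were 43.7% and 35.8% with THZ531, 41.2% and 37.1% with dCeMM-2, 45.1% and 35.9% with dCeMM-3, 35.3% and 32.9% with dCeMM-4 and 14.8% and 16.5% with dCeMM-1. Of 50 further mitotic genes there were 41 lower and 3 higher on the TMM scale with THZ531, 43 lower and 3 higher with dCeMM-2, 39 lower and 5 higher with dCeMM-3, 27 lower and 9 higher with dCeMM-4 and 3 lower and 12 higher with dCeMM-1. Their medians were -1.44, -1.17, -1.26, -0.27 and 0.08 in that order. KNSTRN, a kinetochore-bound spindle protein, was lower with THZ531 (-2.88 ± 0.12, adjusted p = 4.21e-24), dCeMM-2 (-2.86 ± 0.12, adjusted p = 1.12e-23) and dCeMM-4 (-1.68 ± 0.09, adjusted p = 1.70e-18). CDCA2, a phosphatase subunit on mitotic chromosomes, was lower with dCeMM-3 (-2.48 ± 0.09, adjusted p = 1.14e-25). Of 28 G1/S genes, which act in DNA replication, there were 15 lower and 8 higher with THZ531, 16 lower and 9 higher with dCeMM-2, 19 lower and 8 higher with dCeMM-3, 8 lower and 15 higher with dCeMM-4 and 6 lower and 3 higher with dCeMM-1, with medians of -0.46, -0.55, -0.42, 0.22 and -0.05. CDC25A, the phosphatase of S phase entry, was lower with dCeMM-3 (-3.82 ± 0.12, adjusted p = 1.88e-28), while PCNA, the replication clamp, was higher with dCeMM-2 (1.44 ± 0.06, adjusted p = 1.45e-23) and dCeMM-4 (0.99 ± 0.06, adjusted p = 2.25e-18) on the TMM scale, at -0.35 and 0.43, not called, on the spike-in scale. Mitotic medians lay below the G1/S medians with THZ531, dCeMM-2, dCeMM-3 and dCeMM-4 in these lists, a description with no test.

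Of 17 genes of the anaphase-promoting complex and its partners there were 12 lower and 3 higher with THZ531, 12 lower and 3 higher with dCeMM-2, 11 lower and 4 higher with dCeMM-3, 9 lower and 6 higher with dCeMM-4 and 5 lower and 0 higher with dCeMM-1, all by edgeR. For dCeMM-1 DESeq2 also gave 5 lower and 0 higher, and at an unadjusted p under 0.05 edgeR gave 6 lower and 1 higher. CDC27, a core subunit, was lower with dCeMM-2 (-2.67 ± 0.11, adjusted p = 4.28e-23) and THZ531 (-2.06 ± 0.10, adjusted p = 9.68e-21). FBXO5, an inhibitor of the complex, was lower with dCeMM-3 (-3.28 ± 0.12, adjusted p = 2.77e-26) and higher with dCeMM-4 on the TMM scale (0.88 ± 0.08, adjusted p = 1.04e-12, and 0.29, not called, on the spike-in scale). Of 17 condensin and cohesin genes there were 11 lower and 4 higher with THZ531, 11 lower and 4 higher with dCeMM-2, 12 lower and 3 higher with dCeMM-3, 6 lower and 9 higher with dCeMM-4 and 3 lower and 5 higher with dCeMM-1. NCAPH, the kleisin of condensin I, was lower with dCeMM-2 (-2.83 ± 0.10, adjusted p = 2.63e-25), dCeMM-3 (-2.997 ± 0.10, adjusted p = 1.25e-26), THZ531 (-2.37 ± 0.09, adjusted p = 5.76e-24) and dCeMM-4 (-0.92 ± 0.08, adjusted p = 4.12e-13). It was lower with dCeMM-1 as well (-0.64 ± 0.08, adjusted p = 4.10e-08).

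Among 16 genes of the DREAM, MuvB and NF-Y regulators there were 9 lower and 6 higher with THZ531, 9 lower and 5 higher with dCeMM-2, 10 lower and 6 higher with dCeMM-3, 8 lower and 4 higher with dCeMM-4 and 5 lower and 2 higher with dCeMM-1. E2F5, a repressor E2F, had the lowest adjusted p with each of these but dCeMM-1, at -4.06 ± 0.17 (adjusted p = 3.02e-25) with THZ531 and -3.02 ± 0.12 (adjusted p = 5.89e-23) with dCeMM-4. LIN9, a core MuvB subunit, was lower with dCeMM-2 (-1.80 ± 0.12, adjusted p = 2.11e-17) and THZ531 (-1.82 ± 0.11, adjusted p = 8.75e-18). NFYA, the DNA-binding subunit of NF-Y, was lower with dCeMM-3 (-1.40 ± 0.07, adjusted p = 7.69e-21) and higher with dCeMM-4 (1.49 ± 0.06, adjusted p = 1.44e-21), the latter on the spike-in scale too (0.93). MYBL2, the activator that joins MuvB, stood at 85.5, 97.5 and 95.3 CPM with DMSO, 128, 122 and 125 with dCeMM-2, 121, 147 and 109.6 with dCeMM-3, 123, 119 and 123 with dCeMM-4, 101, 99.3 and 102 with THZ531 and 75.9, 77.2 and 79.7 with dCeMM-1. On the TMM scale it was higher with dCeMM-2 (0.43 ± 0.08, adjusted p = 4.43e-06), dCeMM-3 (0.44 ± 0.08, adjusted p = 3.18e-06) and dCeMM-4 (0.40 ± 0.08, adjusted p = 1.87e-05), not called with THZ531 (0.12) and lower with dCeMM-1 (-0.25 ± 0.08, adjusted p = 0.0104). Relative to spike-in counts, these were -1.37, -1.42, -0.19, -1.74 and -0.20, the dCeMM-4 and dCeMM-1 values not called. Between compounds MYBL2 was not called on the TMM scale, at 0.00 (95% interval -0.16 to 0.15, adjusted p = 0.972) for dCeMM-2 minus dCeMM-3, 0.04 (95% interval -0.12 to 0.19, adjusted p = 0.659) for dCeMM-2 minus dCeMM-4 and 0.04 (95% interval -0.11 to 0.19, adjusted p = 0.612) for dCeMM-3 minus dCeMM-4. By spike-in counts these were 0.05 (not called), -1.18 and -1.23.

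CDKN1A encodes p21, an inhibitor of cyclin-dependent kinases that is known to hold mitotic genes down through DREAM. It stood at 19.7, 18.4 and 20.1 CPM with DMSO, 22.9, 27.4 and 22.7 with dCeMM-1, 334, 313 and 339.7 with dCeMM-2, 33.3, 35.7 and 34.5 with dCeMM-3, 81.00, 81.1 and 84.5 with dCeMM-4 and 482, 511 and 519.7 with THZ531. Every treated library was above every DMSO library, with THZ531 and dCeMM-2 far above the others. The TMM log2 fold changes were 0.34 ± 0.08 (adjusted p = 0.00167), 4.09 ± 0.08 (adjusted p = 2.57e-32), 0.84 ± 0.08 (adjusted p = 1.39e-11), 2.09 ± 0.08 (adjusted p = 2.63e-23) and 4.71 ± 0.08 (adjusted p = 1.05e-34) in that order. With spike-in scaling, it was higher with dCeMM-2 (2.30), dCeMM-4 (1.53) and THZ531 (2.86), lower with dCeMM-3 (-0.99) and not called with dCeMM-1 (0.39). Between compounds it was higher with dCeMM-2 than with dCeMM-3 by 3.26 ± 0.07 (adjusted p = 1.28e-30) and than with dCeMM-4 by 2.0 ± 0.07 (adjusted p = 8.06e-25), and lower with dCeMM-3 than with dCeMM-4, at -1.26 ± 0.07 (adjusted p = 1.36e-18). By spike-in counts these differences were 3.29, 0.77 and -2.51, all called. Set beside the mitotic genes on the TMM scale, THZ531 had a median member change of -1.28 with a CDKN1A change of 4.71. The same pair was -1.04 with 4.09 for dCeMM-2 and -0.82 with 0.84 for dCeMM-3. For dCeMM-4 it was 0.01 with 2.09, and for dCeMM-1 0.04 with 0.34. How these relate was not tested.

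Members with and without a CHR by the letters searched had overlapping responses. Other forms of the element were not searched, and 6 members had further listed windows that were not read. A member counted as without a CHR may therefore hold one. With THZ531 the median TMM log2 fold change was -1.33 over the 22 members with a CHR and -1.28 over the 11 without. With dCeMM-3 these medians were -0.83 and -1.02, and with dCeMM-2 -1.09 and -1.32. With dCeMM-4 they were 0.04 and -0.67, with 9 lower and 9 higher among those with a CHR and 6 lower and 2 higher among those without. These are descriptions with no test. The printed windows were chosen in genes that moved in different ways, so the spread among them follows from that choice. PLK1, KIF11, PRC1 and DEPDC1 share a CHR and a CCAAT at like distances. Their values with dCeMM-3 were -2.36, -2.24, -0.17 and 0.21, the last not called. With dCeMM-4 the same 4 were at -0.07 (not called), 0.44, 0.92 and -1.60.

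The members tested are genes of ordinary length with many exons. Their median span was 28.0 kb, from 4.25 kb (CDC20) to 92.6 kb (CENPE), with a median of 17 exons, against 33.2 kb and 11 exons for 12332 protein-coding genes tested. Across the 39 members, log2 fold change against log10 span had a Pearson's r of 0.00 with THZ531, 0.01 with dCeMM-2, -0.12 with dCeMM-3, 0.22 with dCeMM-4 and 0.46 with dCeMM-1, as a description across genes of the same libraries. With dCeMM-1 the 10 members spanning under 15 kb had a median of -0.18, and the 12 spanning 40 kb or more had 0.07.

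Overlaps with neighbouring genes limit some values, since the strand setting of the counting is not given in the sources used here. Exons of 14 members overlap exons of a gene on the other strand, among them PLK1 (ERN2), FOXM1 (ITFG2), CCNA2 (EXOSC9), CDC25C (FAM53C), TUBG1 (RETREG3), HMMR (HMMR-AS1) and KIF20A (BRD8 and CDC23). BUB1B, CENPA and PRC1 share exons with a gene annotated on the same strand, PRC1 over 3181 bases. Reads ambiguous between genes were left out of the gene counts, so reads of these members from shared stretches may be missing. How far the overlaps moved the values of these genes was not tested, and these values are less certain. Over the 23 tested members with neither kind of overlap, 20 were lower and 1 higher with THZ531, 19 and 1 with dCeMM-2, 19 and 3 with dCeMM-3, and 9 and 10 with dCeMM-4 on the TMM scale, with medians of -1.28, -1.03, -1.02 and 0.09.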

How the data were processed

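RNA of 18 libraries, 3 in each of 6 groups, was measured by sequencing of polyadenylated RNA with spike-ins. The authors deposited 1 table of raw read counts per gene for each library, per the file headers and values. HTSeq 0.11.2, Picard, STAR 2.5.2b and Trimmomatic 0.32 are listed with the builds GRCh38.p7 and hg38, per the submitters' processing notes, which give no role or order. Strand setting and any molecular identifiers are not given in the sources used here. Reads outside genes, ambiguous between genes or not aligned uniquely were 34.2% to 50.6% of the count total and stayed out of library sizes.

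Gene identifiers were matched to GENCODE 29 (57447 of 58051). Counts of 15055 genes kept by filterByExpr were fitted over all 6 groups, without a block, with edgeR 4.0.16 (quasi-likelihood, robust, limma 3.58.1, R 4.3.3), once with TMM factors and once with library sizes from the 92 ERCC sequences and 7 SIRV genes. Printed log2 fold changes use a prior count of 0.125, and p-values were adjusted by Benjamini-Hochberg within each of 8 comparisons, at 0.05. The fit was checked on simulated counts. DESeq2 1.42.0, other factors, no filter, ERCC or SIRV alone, a replicate block and the loss of each library were alternatives. Replicates of a group differed by more than sampling noise. Precision is limited by depth, lowest in DMSO replicate 3.

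The members, lists and rules were chosen with earlier results of these data known. By rule, library values are given for 10 anchor genes, the 4 lowest and 3 highest members against DMSO and those called in opposite directions on the 2 scales. The rule was not kept for KIF2C, TUBG1 and NEK2 with dCeMM-1, whose library values are not printed. Between compounds the 4 widest and 2 narrowest differences are named, with CCNB1, PLK1 and TTK. Up to 4 genes of each other list are named, by lowest adjusted p. CDKN1A and MYBL2 are always given.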

Additional observations from a re-analysis of the deposited data

How the results depend on the processing

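No member's log2 fold change reversed a call under any alternative run. On the spike-in scale all 39 calls with each of THZ531, dCeMM-3 and dCeMM-2 held in every setting, as did the 28 with dCeMM-4 and the 37 between dCeMM-3 and dCeMM-4 on the TMM scale. Of the TMM calls against DMSO, 34 of 35 held with dCeMM-2, 31 of 36 with dCeMM-3, 33 of 36 with THZ531 and 6 of 15 with dCeMM-1. Without the filter on low counts, lower calls with dCeMM-1 came to 3 (7 in the report), higher calls with THZ531 to 1 (3) and higher calls between dCeMM-2 and dCeMM-4 on the TMM scale to 4 (7). DESeq2 gave 5 higher calls with dCeMM-1 (8). Leaving out 1 library at a time, higher calls ranged from 3 to 10 with dCeMM-1 and from 1 to 3 with THZ531, and lower calls with dCeMM-1 from 4 to 8. The ranges by spike-in counts were 0 to 1 higher with dCeMM-4, 4 to 9 lower and 4 to 11 higher between dCeMM-2 and dCeMM-3, 0 to 1 higher between dCeMM-2 and dCeMM-4, and 1 to 2 higher between dCeMM-3 and dCeMM-4.

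No pairing of samples by replicate number was seen, but deviations within groups of 3 libraries cannot exclude it. Over 45 same-number pairs the correlation of deviations ran from -0.14 to 0.12, and 9 of 18 libraries correlated best with their own number. The replicate block gave 14 higher calls with dCeMM-4 on the TMM scale in place of 13, the added one being CCNA2, and 4 lower and 6 higher between dCeMM-2 and dCeMM-3 on the spike-in scale in place of 5 and 7. It changed no other count. DMSO replicate 3 was the shallowest library, and UBE2C had too few counts to be tested.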
